A study of Mus musculus with 3 samples.

Results

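The small leucine-rich proteoglycans described here were lumican (Lum), decorin (Dcn), asporin (Aspn), biglycan (Bgn), osteoglycin (Ogn) and fibromodulin (Fmod). They were taken by gene name, and all 6 were found among the 50507 gene rows of the count table. The cells were wild-type mouse embryonic fibroblasts of the BL6 strain, reprogrammed at passage 2 with lentiviruses that carried rtTA and tet-STEMCCA, a doxycycline-inducible cassette of Oct4, Sox2, Klf4 and c-Myc. Reprogramming was started with a medium that held serum, doxycycline, chiron, Alk5i (a TGFb inhibitor), ascorbic acid and LIF. The study's methods set day 0 at the addition of that medium, so a comparison of a later day with day 0 is also one of cells after and before doxycycline, Alk5i and the other agents, and time and medium cannot be told apart. In the time course the cells were only re-plated, and libraries named for days 0 to 6 were used. In the screen the cells received pooled siRNAs before induction, the control siRNA nt (non-targeting) or a mock transfection (Mock), and were read on day 6. Each library is RNA from a bulk culture of virus-transduced primary cells, so fewer cells of a type and less RNA per cell cannot be told apart.

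Small leucine-rich proteoglycans are secreted matrix proteins built on a curved core of leucine-rich repeats. Decorin and biglycan carry chondroitin or dermatan sulfate chains, lumican, fibromodulin and osteoglycin can carry keratan sulfate, and asporin carries no such chain. Most of them bind collagen fibrils and set their width and spacing, and decorin, biglycan and asporin also bind TGFb, the growth factor whose receptor the medium inhibits.

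The 6 genes lie at 4 places in the GRCm38 genome (GENCODE vM21), all protein-coding and all on the plus strand. Dcn (chr10:97479609-97518143) and Lum (chr10:97565128-97572703) are 47.0 kb apart. Aspn (chr13:49544443-49567565) and Ogn (chr13:49608046-49624501) are 40.5 kb apart with Omd between them. Bgn is at chrX:73483602-73495933 and Fmod at chr1:134037254-134048277.

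The 250 bases before the annotated start are shown for Aspn and Bgn, the members that were lower on day 1 than on day 0, and for Ogn, the neighbour of Aspn that was not called on day 1. They come from RefSeq (GRCm38.p6, plus strand), which matched 4 of the 6 members. Capitals mark matches, on either strand, to any of 8 motifs searched. These were TATAAA for the TATA box, CCAAT for the box of that name, TGANTCA for the AP-1 site, CACGTG for the E-box, ATGCAAAT for the octamer, CATTGT for the SOX site, GGGCGG for the GC box and GGAATG for the TEAD site.
Aspn: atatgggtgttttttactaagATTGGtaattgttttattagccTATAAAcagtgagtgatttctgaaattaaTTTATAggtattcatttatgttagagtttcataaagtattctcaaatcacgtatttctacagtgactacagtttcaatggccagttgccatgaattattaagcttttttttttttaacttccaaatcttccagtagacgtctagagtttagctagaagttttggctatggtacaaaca
Ogn: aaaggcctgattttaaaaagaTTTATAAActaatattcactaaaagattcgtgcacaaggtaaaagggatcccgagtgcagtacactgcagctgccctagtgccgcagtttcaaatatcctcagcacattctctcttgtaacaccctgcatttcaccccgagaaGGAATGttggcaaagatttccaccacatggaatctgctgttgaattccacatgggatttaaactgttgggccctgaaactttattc
Bgn: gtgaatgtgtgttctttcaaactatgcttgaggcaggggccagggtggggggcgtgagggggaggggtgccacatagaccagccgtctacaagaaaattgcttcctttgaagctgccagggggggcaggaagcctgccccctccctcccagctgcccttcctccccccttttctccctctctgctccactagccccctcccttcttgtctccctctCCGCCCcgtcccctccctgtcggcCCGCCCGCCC
The windows are chr13:49544193-49544442 for Aspn, chr13:49607765-49608014 for Ogn and chrX:73483351-73483600 for Bgn. The first and second lie inside Cenpp, a gene of the opposite strand. The Aspn and Ogn windows each hold TATAAA on both strands, which 12.4% of 32851 promoter windows of this length hold in at least 1 place. In Ogn the letters of these matches overlap. Aspn also holds CCAAT (33.8% of windows) and Ogn holds GGAATG (12.6%). Bgn holds GGGCGG (32.7% of windows) at 3 places, the last and the one before it overlapping, and none of the other motifs. GC content was 30.0% for Aspn, 42.0% for Ogn and 64.4% for Bgn, against a median of 52.4% over all windows. The Fmod window held no match. A match describes the letters of a window and is no evidence of binding.

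RNA was measured by CEL-Seq2, which counts transcript ends with molecular barcodes, in 127 libraries of 42 conditions with 29656 to 235292 counts each. There were 33 siRNAs with 3 libraries each (siMtf1 with 2), 3 nt, 5 Mock and 21 time course libraries. The study describes triplicate transfections and independent replicates but not whether these came from separate preparations of fibroblasts, so p-values measure the spread between these libraries. Levels below are CPM, a library's counts scaled to its tested-gene total after TMM adjustment, and counting intervals cover counting error only. A comparison was called where edgeR's quasi-likelihood test gave an adjusted p under 0.05 over all 3013 tested genes. All 13 fibroblast markers had counts on day 0, with a summed level of 7307 to 9041 CPM. Of 10 pluripotency markers 9 were at 0 on day 0, and of 10 epithelial markers 8. Of 5 endothelial markers 4 were at 0 (Pecam1 and Cdh5 among them), with 1 count of Emcn. Of 6 blood cell markers 4 were at 0 (Ptprc among them), with 31 counts of Lyz2 and 1 of Cd68. Of 8 cartilage and tendon markers 6 were at 0 (Col2a1 among them), with 13 counts of Tnmd and 7 of Sox9. Of 6 skeletal muscle markers 5 were at 0, with 16 counts of Acta1. Smooth muscle markers summed to 4495 to 6174 CPM. The targets were too shallowly counted to check the siRNA labels. Of the 9 targets that passed the filter 0 were called lower than in nt, although 7 had a fold change below 0. For the siRNAs with member calls, Ep300 had 17 counts in siEp300 against 3 in nt (means of 51.5 and 15.0 CPM), Brca1 had 4 against 2 in siBrca1 (22.3 and 7.71 CPM) and Bptf had 11 against 20 in siBptf (95.4 and 76.5 CPM), none of them called, so in mean CPM these 3 were not lower. Means were lower than in nt for Trp53 in sip53 (5 counts against 8), Wdr5 in siWdr5 (7 against 9), Pou5f1 in siPou5f1 (0 against 4) and Bard1 in siBard1 (0 against 2), none of them called. The study also measured target RNA of Brca1, Bard1 and Wdr5 in a separate knockdown check, which was not used here, so the low counts of these targets say nothing against their knockdown. A name such as siBptf stands throughout for libraries so labelled.

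Between day 0 and day 6 the composition of the family turned over. Aspn and Bgn fell, and Dcn and Lum rose. Bgn, Dcn and Lum were each called, where 22.2% of tested genes were. Aspn passed the low-count filter only through the day 0 libraries, where it is high, so a lower level on the other days was built into its being tested, and its calls are given as a description and left out of each count of member calls set beside all genes. Lum, Dcn and Bgn passed with or without the day 0 libraries. Ogn and Fmod did not pass that filter and were tested without it, among 30778 genes. A molecular count stands for a transcript end, so shares of counts were not divided by length. Of the 335 member counts on day 0, Bgn made up 66.3%, Aspn 25.4%, Ogn 6.27%, Dcn 1.49% and Lum 0.597%. Of the 142 member counts on day 6, Dcn made up 41.5%, Bgn 28.2%, Lum 26.8% and Ogn 3.52%. The summed level of the 6 genes was 1313 to 1697 CPM on day 0 and 475 to 545 CPM on day 6, with no overlap.

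Biglycan had 821, 974 and 1126 CPM in the day 0 libraries and 148, 199 and 130 CPM on day 6. Its highest day 6 library was far below its lowest day 0 library. Its level fell by 2.71 ± 0.27 on the log2 scale (SE, n = 3 against 3, edgeR adjusted p = 2.36e-17), lower in 3 of 3 replicates. The drop was already present on day 1, at 160, 220 and 262 CPM, where 9.89% of tested genes were called (log2 fold change -2.15 ± 0.26, edgeR adjusted p = 6.62e-12). On days 2 to 5 its means were 120, 191, 134 and 142 CPM. Each of these days was called against day 0, with log2 fold changes from -3.02 to -2.35, where 11.6%, 10.9%, 18.7% and 31.9% of genes were called, and no day was called against the day before from day 2 on.

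Asporin, which binds collagen and TGFb without a glycosaminoglycan chain, had 493, 191 and 430 CPM on day 0, or 85 counts. No library of day 1 or day 6 held a count. Against the floor of 3 counts over the group this is at least 23.8-fold lower on day 1 and at least 33.1-fold lower on day 6. With the filter, edgeR called Aspn lower on each of the 6 days. Only the day 0 libraries let it pass that filter, so these calls are a description and their p-values are left out. Without the filter Aspn was also called lower on day 6, where 1.4% of genes were called. Days 2, 4 and 5 held 1 count each, which gives ratios to day 0 of 98.0 (95% counting interval 17.1 to 3916), 127 (22.1 to 5060) and 124 (21.7 to 4974). Day 3 held 8 counts, at 105, 0 and 17.6 CPM, so 1 library carried most of them. Its log2 fold change against day 0 was -3.37 ± 0.63, and day 3 was not called against day 2 (edgeR adjusted p = 0.245). DESeq2 with the same terms called none of the 6 days for Aspn, with adjusted p from 0.362 to 0.788 and log2 fold changes of the same sign. Exons of Aspn overlap Cenpp on the other strand, and whether counting used the strand is not given in the sources used here. Cenpp had 0 counts on day 0 and 1 on day 6.

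Decorin, the best known binder of collagen fibrils in the family, had 0, 42.3 and 24.8 CPM on day 0 and 193, 253 and 218 CPM on day 6. The groups did not overlap. The log2 fold change was 3.18 ± 0.54 (SE, n = 3 against 3, edgeR adjusted p = 4.41e-07), higher in 3 of 3 replicates. The course was not steady. Day 1 (0, 12.2 and 45.5 CPM) and day 2 (85.7, 30.3 and 27.4 CPM) were not called against day 0. Day 3 had 122, 253 and 185 CPM and was called higher than day 0 (log2 fold change 2.94 ± 0.57, edgeR adjusted p = 2.46e-05). Day 4 had 56.1, 81.0 and 65.3 CPM, all below every library of day 3. Day 5 returned to 165, 186 and 213 CPM, all above every library of day 4.

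These steps of Dcn made up all 3 member calls among 15 tests of Lum, Dcn or Bgn against the day before, where 6.45% of tests over all genes were called. Day 3 was higher than day 2 by 1.93 ± 0.47 on the log2 scale (edgeR adjusted p = 0.00496), where 2.82% of genes were called. Day 4 was lower than day 3 (-1.43 ± 0.41, edgeR adjusted p = 0.00925; 11.9% of genes). Day 5 was higher than day 4 (1.48 ± 0.38, edgeR adjusted p = 0.00850; 4.78% of genes). No member was called on day 2 against day 1 (4.81% of genes) or on day 6 against day 5 (7.87%). Without replicate 3 these adjusted p-values were 0.187, 0.101 and 0.221, and without replicate 2 those of days 3 and 4 were 0.188 and 0.126. All 3 also missed the threshold without the low-count filter (0.142, 0.283 and 0.0595), day 5 without the replicate block (0.0524), and days 4 and 5 with limma (0.251 and 0.682).

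Lumican, a keratan sulfate proteoglycan that also binds collagen fibrils, had 0, 0 and 16.6 CPM on day 0, or 2 counts. It had 119, 72.3 and 177 CPM on day 6, or 38 counts, and the groups did not overlap. The count ratio of day 6 to day 0 was 16.3 (95% counting interval 4.21 to 139; edgeR adjusted p = 3.89e-04). Days 1, 2 and 3 (means of 16.0, 41.5 and 41.5 CPM) overlapped day 0 and were not called. Day 4 had 179, 121 and 79.8 CPM and day 5 had 279, 119 and 70.9 CPM. Both were called against day 0 (edgeR adjusted p = 0.00161 and 2.73e-04). No day was called against the day before for Lum, day 4 against day 3 included (edgeR adjusted p = 0.176). Dcn was therefore first called on day 3 and Lum on day 4, but the difference between their courses was not tested.

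Osteoglycin had 82.1, 106 and 99.3 CPM on day 0, was between 87.4 and 108 CPM on day 3, and had 14.8, 18.1 and 20.5 CPM on day 6. The day 6 libraries lay below those of day 0 without overlap. Without the filter the log2 fold change was -2.14 ± 0.71 (edgeR adjusted p = 0.134), so this difference was not called, in a test where 1.4% of genes were. It rests on 21 counts against 5. Fibromodulin had 1 count in the 21 time course libraries, on day 4, so no change was detectable at this depth.

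**Figure D1:**
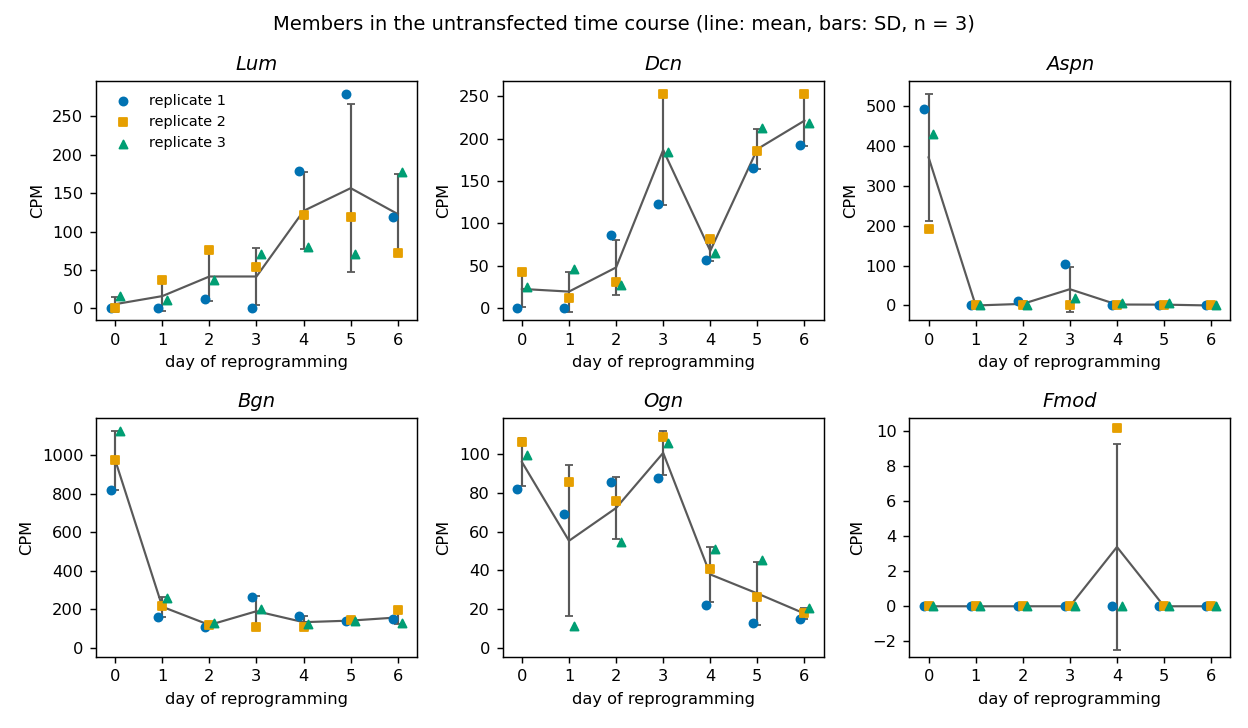
CPM of each of the 6 members (vertical axes, linear) against the day of the untransfected time course, with a point for each of 3 replicates, a line through the means and bars for the SD. Bgn and Aspn are high on day 0 and low from day 1, Dcn is high on day 3 and from day 5, Lum from day 4, Ogn is lower on days 4 to 6 than on day 3, and Fmod has 1 count.

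Over days 1 to 6 against day 0, 12 of 18 tests of Lum, Dcn and Bgn were called, 6 higher and 6 lower, where 17.5% of tests over all genes were called. These comparisons share the day 0 libraries. Of the other small leucine-rich proteoglycans, none of 11 passed the filter and Chad had no count. Prelp, a neighbour of Fmod on chromosome 1 that binds heparin and collagen, had 1 count on day 0 and 18 on day 6 (edgeR without the filter, adjusted p = 0.0194) and was the only one of the 10 tested without the filter that was called. Kera and Epyc, which lie within 126 kb of Dcn and Lum, had 5 and 2 counts in all 127 libraries, where Lum had 2577 and Dcn 2290. Omd and Ecm2, beside Aspn, had 11 and 4 counts.

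The fall of Aspn and Bgn went beside a fall of other fibroblast and contractile genes. Of 9 fibrillar collagens, whose fibrils these proteoglycans coat, 4 were tested, and all 4 were lower on day 1 and 3 on day 6 (median log2 fold change on day 6 -1.63, against 0.05 over all genes). Col1a2 fell by 1.67 ± 0.19 and Col1a1 by 1.58 ± 0.23 on the log2 scale on day 6 (edgeR adjusted p = 1.34e-13 and 1.37e-09). Of 13 fibroblast markers 10 were tested and 8 were lower on day 6, Postn (-4.67 ± 0.62) among them, and the summed level was 2856 to 3887 CPM. Of 6 smooth muscle markers 5 were tested and all were lower, Acta2 (-4.28 ± 0.24) among them, with a summed level of 163 to 490 CPM. Lyz2, the blood cell marker that was tested, was lower as well on day 1 (-2.60 ± 0.79, edgeR adjusted p = 0.0164) and day 6 (-1.87 ± 0.69, edgeR adjusted p = 0.0349). Epithelial markers summed to 20.5 to 24.8 CPM on day 0 and 74.2 to 253 CPM on day 6, and pluripotency markers to at most 21.2 and at most 72.3 CPM. The part of these changes in cell state in the levels of the members was not tested.

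Of 22 other proteoglycans 2 passed the filter and both were called on day 6. Versican (Vcan), a large hyaluronan-binding proteoglycan, fell by 1.44 ± 0.25 on the log2 scale (edgeR adjusted p = 9.17e-07), and syndecan 2 (Sdc2), a cell surface heparan sulfate proteoglycan, rose by 1.09 ± 0.38 (edgeR adjusted p = 0.0261). None of the 23 enzymes that build or sulfate chondroitin and dermatan sulfate and none of the 10 for keratan sulfate passed the filter, and of the 22 and 10 that could be tested without it none was called between day 0 and day 6. Of the propeptide-processing genes Pcolce and Pcolce2 were tested and not called. Of 15 TGFb ligands, binding proteins and proteoglycan receptors 4 were tested on day 6 and 0 were called.

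Cells given the control siRNA held more lumican than untransfected cells of the same day. The nt libraries had 849, 284 and 245 CPM of Lum against 119, 72.3 and 177 CPM in untransfected day 6 cells. All nt libraries were above all day 6 libraries, and 1 nt library was far above the other two. The log2 fold change was 1.53 ± 0.38 (SE, n = 3 against 3, edgeR adjusted p = 0.00102), the only call among Lum, Dcn and Bgn, where 26.6% of genes were called. Without replicate 1, to which the high nt library belongs, it was 0.82 with an adjusted p of 0.156, and limma on the deposited log2 values gave an adjusted p of 0.234. Dcn had 416, 239 and 335 CPM in nt (log2 fold change 0.59 ± 0.30, edgeR adjusted p = 0.136) and Bgn 117, 89.7 and 106 CPM (-0.53 ± 0.38, edgeR adjusted p = 0.319).

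Other genes of the fixed lists moved between nt and untransfected day 6 as well. Fibrillar collagens were lower in nt in 2 of 4 tests (Col1a2 by 1.24 ± 0.25, Col1a1 by 1.39 ± 0.31 on the log2 scale), and fibroblast markers summed to 1814 to 2124 CPM in nt, with 3 of 10 lower and 0 higher. Acta2, Pcolce, Tgfb2, Met and Vcan were called lower in nt too (edgeR adjusted p from 0.00223 for Acta2 to 0.0396 for Vcan). The rise of Lum was thus in the opposite direction to type I collagen in the same libraries. The Mock libraries had 490, 481, 836, 323 and 358 CPM of Lum, all within the range of nt. They had 310, 412, 634, 149 and 508 CPM of Dcn, which spans all nt libraries. Mock against nt gave 0 calls of Lum, Dcn and Bgn, where 1.56% of genes were called, and 0 of them had an unadjusted p under 0.05. DESeq2 and limma also called 0. The log2 differences were 0.14 ± 0.31 for Lum, 0.33 ± 0.27 for Dcn and 0.58 ± 0.39 for Bgn, so differences of these sizes cannot be told from 0 here.

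Lum had a count in each of the 106 transfected libraries, and the mean of each of the 35 transfected conditions, from 175 CPM in siBptf to 689 CPM in siPhf1, was above the mean of untransfected day 6. Dcn also had a count in all 106, with condition means from 68.5 CPM in siBptf to 672 CPM in sip53, and 23 of 35 means were above that of untransfected day 6. Bgn means ran from 57.6 CPM in siMyc to 249 CPM in siWdr5. Ogn had a count in 59 libraries. Aspn had 12 counts over 11 libraries and Fmod 4 counts over 3.

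The libraries labelled with each siRNA were compared with nt to ask in which of them the family differed on day 6. No direction below is tied to loss of a target, since most targets had too few counts to check. Of 99 tests of Lum, Dcn and Bgn, 6 were called, 2 higher and 4 lower, where 2.57% of tests over all genes were called. All of these share the 3 nt libraries. Of the 6 calls, 5 were of Dcn and 1 of Bgn. Decorin was lowest in siBptf, with 68.9, 45.6 and 91.2 CPM against 416, 239 and 335 CPM in nt. The groups did not overlap (log2 fold change -2.18 ± 0.45, SE, n = 3 against 3, edgeR adjusted p = 5.97e-04; 1.16% of genes called). Bptf encodes a subunit of a chromatin remodeller. The call was kept in 10 of 10 alternatives that gave an adjusted p, the highest being 0.0354. It rests on 10 counts of Dcn in siBptf against 82 in nt, and the siBptf libraries were shallow, with 30798 to 66570 counts each.

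Decorin was also lower in siBrca1, at 145, 114 and 94.2 CPM (-1.53 ± 0.38, edgeR adjusted p = 0.00665; 4.22% of genes called). It was lower in siPou5f1, at 180, 118 and 113 CPM (-1.32 ± 0.37, edgeR adjusted p = 0.0118; 5.77%). It was lower in siEp300, at 42.9, 99.3 and 204 CPM (-1.22 ± 0.31, edgeR adjusted p = 0.00467; 5.68%). None of these groups overlapped nt. In sip53 decorin was higher, at 903, 542 and 571 CPM, above all nt libraries (1.04 ± 0.27, edgeR adjusted p = 0.0153; 1.96%). Brca1 encodes a DNA repair protein, Pou5f1 the reprogramming factor Oct4, Ep300 a histone acetyltransferase, and p53 is the DNA damage response factor.

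These calls were less firm than that in siBptf. That in siBrca1 was lost without replicate 3 (edgeR adjusted p = 0.232), that in siEp300 without replicate 1 (log2 fold change -0.80, adjusted p = 0.248), that in siPou5f1 without replicate 1 or 3 (0.0612 and 0.269) and that in sip53 without replicate 1 or 2 (0.239 and 0.146). Without the replicate block siPou5f1 had an adjusted p of 0.0746 and sip53 of 0.141, without the filter siEp300, sip53 and siPou5f1 had 0.151, 0.595 and 0.106, with only the 2 conditions in the fit siEp300 had 0.0569, and limma called none of the 4 (0.150 to 0.535).

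Lum was called in 0 of 33 siRNAs, with 11 at an unadjusted p under 0.05 (10 lower and siPhf1 higher). The lowest adjusted p was 0.0518, for siPou5f1, which had 180, 166 and 180 CPM. DESeq2 and limma also called 0, while without the filter Lum was called lower in siBptf (edgeR adjusted p = 0.0316). Without replicate 1 Lum was called higher in siPhf1 and siWhsc1l1, and without replicate 2 it was called lower in siBptf, siCdk1, siEp300 and siPou5f1. It was also called lower in siPou5f1 without replicate 3 or with total-count scaling, and in siCdk1, siKmt2d, siPrmt7 and siTdrd7 with only the 2 conditions in the fit. With Mock added to nt as control, lower calls of members in siRNAs rose from 4 to 13, with Lum in siBptf, siCdk1, siEp300, siKmt2d and siPou5f1 among them. In siWdr5, the only siRNA whose calls over all genes were counted under this control, lower calls rose from 454 to 534 of 3013 genes. Higher calls there rose from 367 to 468.

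**Figure D2:**
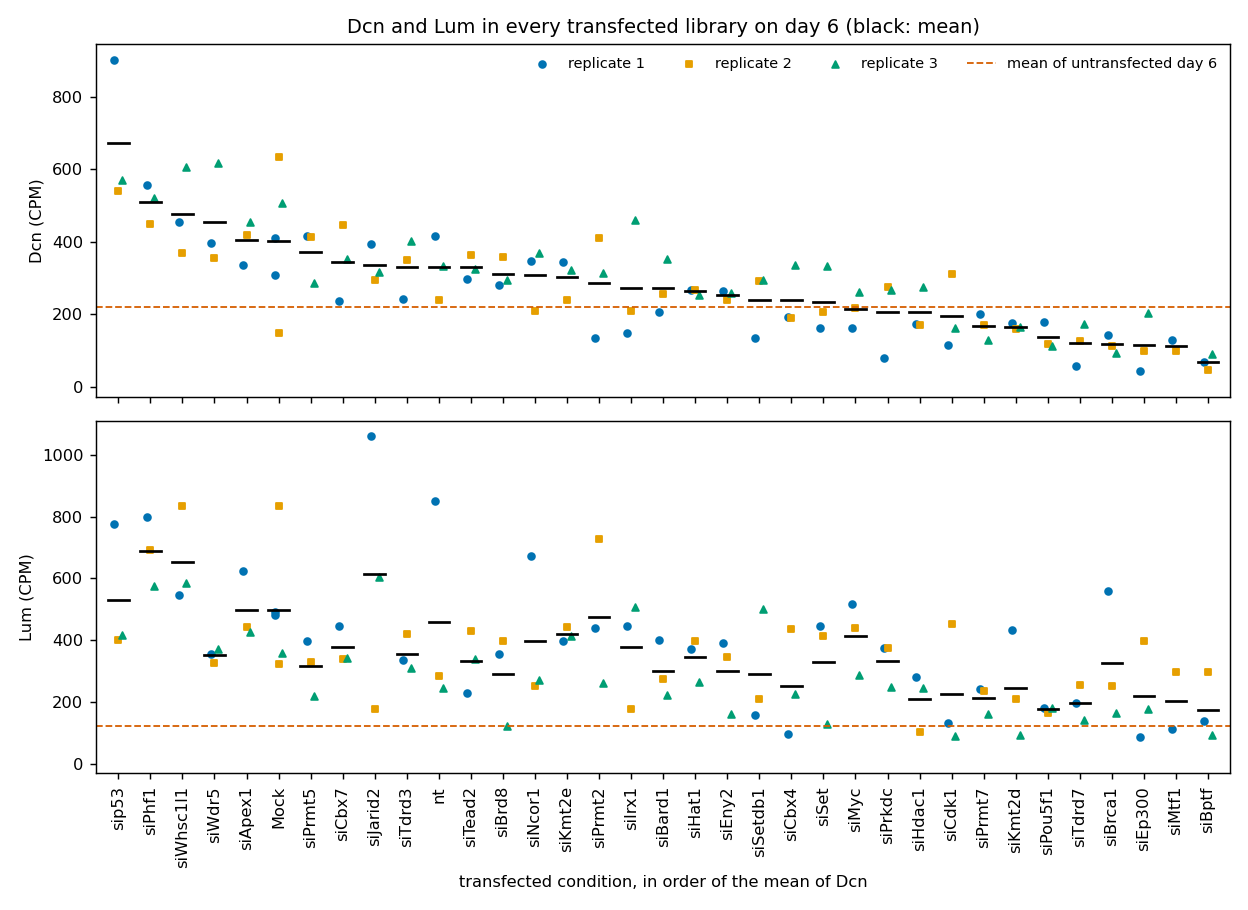
CPM of Dcn (upper panel) and Lum (lower panel) in every transfected library, by condition in order of the Dcn mean, with a point per library, a black line for the mean and a dashed line for the mean of untransfected day 6. Dcn runs from sip53 to siBptf across the dashed line, and all Lum means lie above it.

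**Figure D3:**
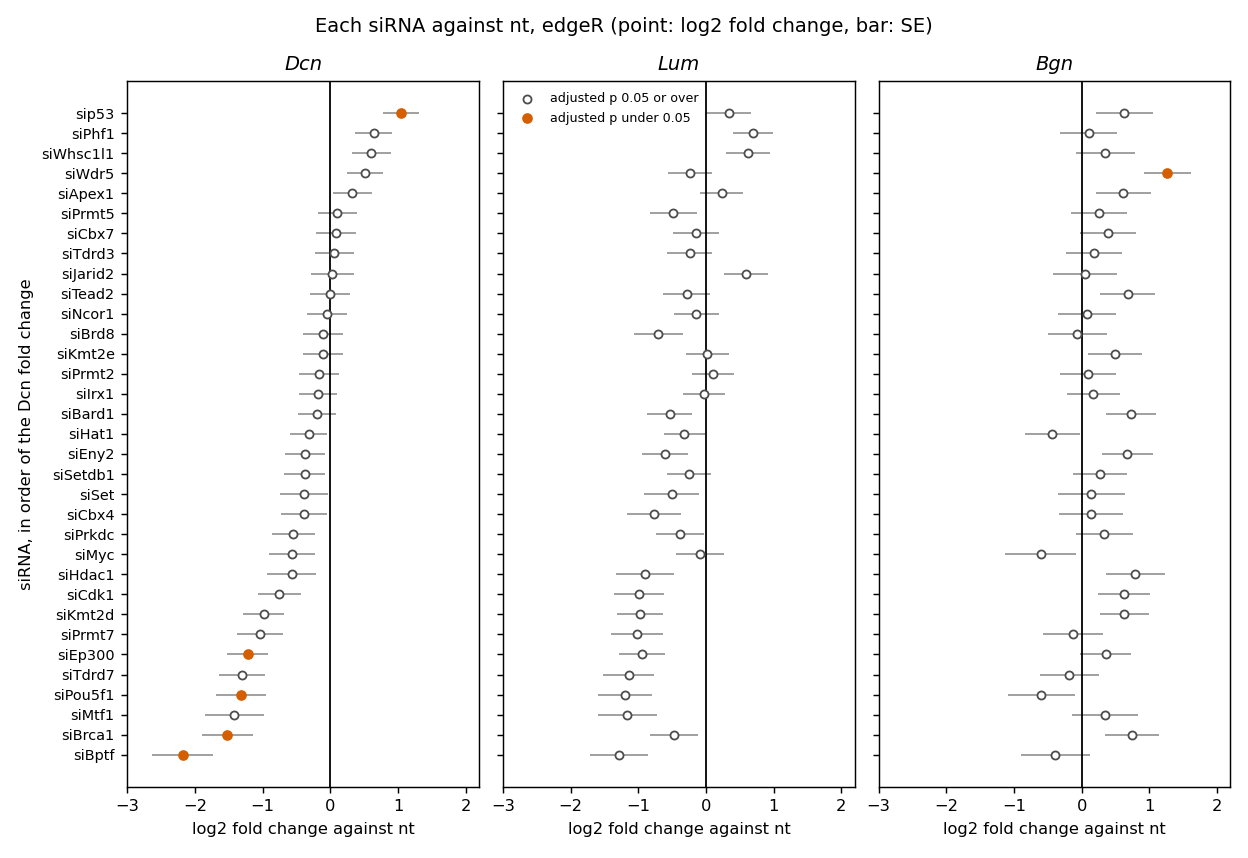
Log2 fold change of Dcn, Lum and Bgn in each of 33 siRNAs against nt (horizontal axes), with bars for the SE and filled points for an adjusted p under 0.05. Dcn is filled in 5 rows, Bgn in siWdr5 and Lum in none.

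Biglycan was higher in siWdr5, which targets a subunit of histone methyltransferase complexes, at 198, 256 and 294 CPM against 117, 89.7 and 106 CPM in nt. All siWdr5 libraries were above all nt libraries (log2 fold change 1.27 ± 0.35, SE, n = 3 against 3, edgeR adjusted p = 0.00292), where 27.2% of genes were called in that comparison. The adjusted p was 0.0545 without replicate 2, 0.0860 without replicate 3, 0.116 without the filter and 0.194 with limma. Its mean of 249 CPM was the highest of the 35 transfected conditions. Of 33 siRNAs, 26 had a Bgn fold change above 0, with 1 of them called. All share the 3 nt libraries, whose Bgn mean of 104 CPM was below the 151 CPM of Mock. Against the same libraries, 26 Lum and 24 Dcn fold changes were below 0. The share over all genes was not counted. Dcn in siWdr5, at 396, 355 and 617 CPM, and Lum, at 357, 327 and 370 CPM, were not called against nt.

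Osteoglycin, tested without the filter, was called in 1 of 33 siRNAs. In siEp300 it had 114, 42.6 and 181 CPM, or 51 counts, against 33.3, 0 and 8.17 CPM in nt, or 3 counts. The count ratio was 12.7 (95% counting interval 4.12 to 63.8; edgeR adjusted p = 0.00337, where 0.192% of genes were called). The siEp300 libraries lay above all nt libraries. Replicate 3 held 40 of the 51 counts and was the deepest library of the series, with 235292 counts, and without replicate 1 or 2 the comparison was still called (adjusted p = 0.00600 and 0.0318), while without replicate 3 Ogn did not pass the filter and limma gave an adjusted p of 0.633. Without the filter Aspn and Fmod were called in 0 of 33, with 1 siRNA at an unadjusted p under 0.05 for Aspn and 0 for Fmod. With the filter Aspn was also called in 0, with 0 at an unadjusted p under 0.05. Each had at most 2 counts in a siRNA.

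**Figure D4:**
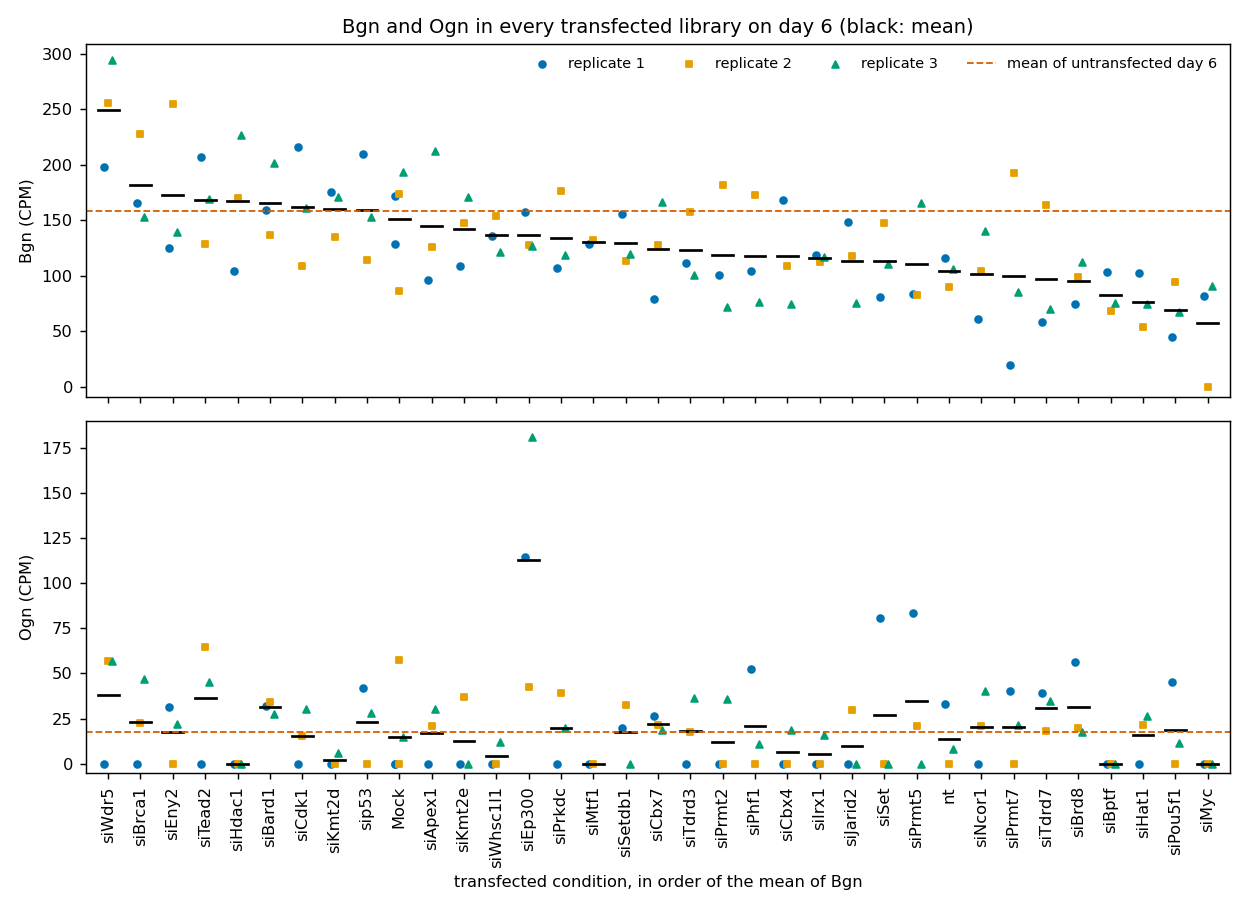
CPM of Bgn (upper panel) and Ogn (lower panel) in every transfected library, by condition in order of the Bgn mean, with a point per library, a black line for the mean and a dashed line for the mean of untransfected day 6. siWdr5 is highest for Bgn and siEp300 for Ogn, and many libraries hold no Ogn count.

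In siBrca1, siEp300, sip53 and siWdr5 type I collagen was higher than in nt. Dcn was called lower in siBrca1 and siEp300, higher in sip53, and was not called in siWdr5. Col1a1 rose by 1.77 ± 0.28 in siEp300, 1.81 ± 0.31 in sip53 and 2.67 ± 0.27 in siWdr5 on the log2 scale, and in siBrca1 as well (edgeR adjusted p = 0.00721). Fibroblast markers summed to 2872 to 3740, 2794 to 4918, 3093 to 3780 and 5441 to 6056 CPM in these, and to 1814 to 2124 CPM in nt. Smooth muscle markers summed to 274 to 671, 468 to 1087, 105 to 279 and 409 to 654 CPM, and to 73.5 to 83.3 CPM in nt. In siPou5f1, where Dcn was lower, fibroblast markers were at 1081 to 1324 CPM and Col1a2 fell by 1.09 ± 0.36, while Col1a1 was not called (0.09 ± 0.39) and smooth muscle markers were at 124 to 378 CPM. In siBptf fibroblast markers were at 1672 to 2100 CPM and smooth muscle markers at 68.9 to 289 CPM, and 0 of 10 fibroblast markers and 0 of 4 collagens were called. The part of these shifts in the levels of the members was not tested. Prelp was called in siWdr5 too, with 32 counts against 2 in nt (edgeR without the filter, adjusted p = 4.31e-04, where 1.28% of genes were called).

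The study followed up siWdr5, siBrca1 and siBard1 as a triplet, and members were compared between them. Of 9 tests of Lum, Dcn and Bgn 1 was called, where 6.41% of tests over all genes were. Dcn had 396, 355 and 617 CPM in siWdr5 and 145, 114 and 94.2 CPM in siBrca1. The groups were far apart (log2 fold change 2.04 ± 0.35, SE, n = 3 against 3, edgeR adjusted p = 4.01e-06, where 9.99% of genes were called), and the call was kept in all 10 alternatives. In siBard1, whose target is the partner of Brca1, Dcn had 208, 257 and 354 CPM, all above the siBrca1 libraries. The highest siBard1 library (354 CPM, 51 counts) was barely below the lowest siWdr5 library (355 CPM, 25 counts), so these 2 groups could not be told apart by their ranges. Against siBard1 the log2 fold change was 0.71 ± 0.27 for siWdr5 (edgeR adjusted p = 0.0826; 8.36% of genes called) and -1.33 ± 0.38 for siBrca1 (edgeR adjusted p = 0.0607; 0.863%). With RLE size factors Dcn was called in both, and with DESeq2 it was called for siWdr5. Lum and Bgn were not called between any of the 3.

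In the order of the 42 condition means, neighbours could rarely be told apart. For each of Lum, Dcn, Bgn and Aspn only 1 of 41 neighbouring pairs did not overlap, and for Ogn and Fmod none. This was counted for the members alone and not over all genes, so it is a description of the order and nothing particular to them. For Bgn and Aspn the separated pair was day 0 above the next condition (siWdr5 for Bgn, day 3 for Aspn). For Lum it was day 6 above day 3, and for Dcn siMtf1 above siBptf.

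Across the 42 condition means of log2 CPM, with the replicate removed, the gene most like Lum was Dcn, with a Pearson r of 0.857 that was 0.830 over the 35 transfected conditions alone. These points share libraries, scaling and controls, and r is given as a description. After Dcn, Lum was most like Rplp1 and Rps24, which encode ribosomal proteins, with an r of 0.856 and 0.843. Dcn was most like Lum, Rplp1 and Ifitm1 (0.857, 0.740 and 0.725). Aspn was most like Prss35, Wbscr17 and Atp1b1 (0.904, 0.881 and 0.853). Its mean was 371 CPM on day 0 and at most 40.8 CPM in any other condition, so these 3 values lean on day 0. Bgn was most like Lox, a collagen crosslinking enzyme, then Wisp1 and Aspn (0.809, 0.800 and 0.786). Ogn was most like Igfbp7, Col1a1 and Epb41l3 (0.763, 0.754 and 0.753). The r between Aspn and Bgn, 0.786 over all conditions, was 0.366 over the transfected conditions, in which Aspn is at or near 0.

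**Figure D5:**
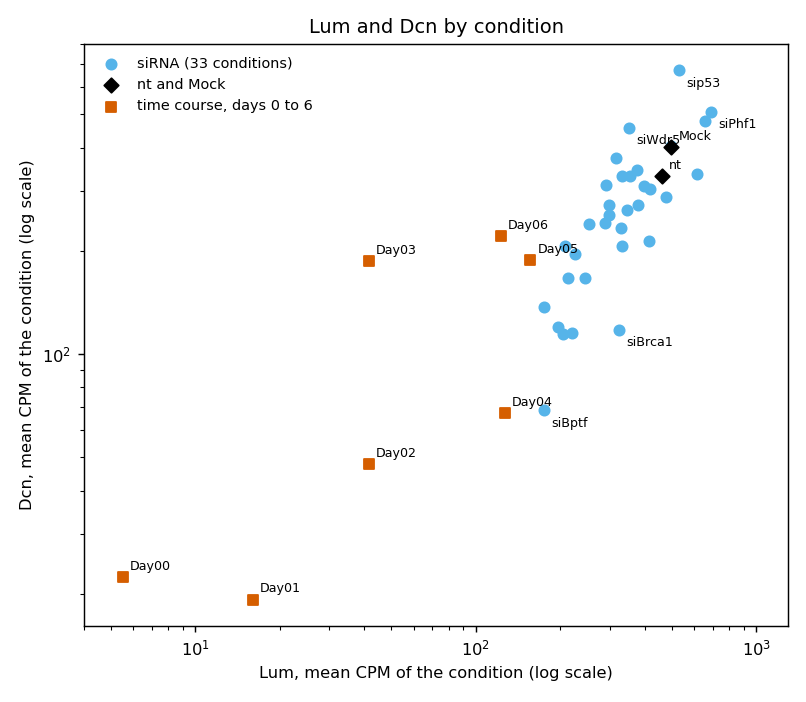
Mean CPM of Dcn against mean CPM of Lum for each of 42 conditions, on log scales, with time course days as squares, nt and Mock as diamonds and siRNAs as circles. Days 0 to 2 lie at the lower left, siBptf is the lowest siRNA for both genes, and siBrca1 has less Dcn than siRNAs with a like level of Lum.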

How the data were processed

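RNA of 129 bulk libraries was sequenced as 3 pools, each holding the libraries of 1 replicate number, and conditions were read from the column names. The authors aligned CEL-Seq2 reads to mm10 with Bowtie2, and deposited raw counts of molecular barcodes per gene and a table of normalised log2 values from which batch effects had been regressed. The counts were used for all levels and tests, and the deposited log2 values only for limma. Libraries of 6403 and 7981 counts were left out. Of the Mock columns of replicate 3, which share a name, 1 was kept, the one that the deposited log2 table matched (r of 0.924 against 0.0172 for the other).

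edgeR 4.0.16 (R 4.3.3) was fitted to 127 libraries with condition and replicate as terms, TMM factors (0.825 to 1.39) and its expression filter, and Benjamini-Hochberg adjustment was over 3013 genes. The fit had 83 residual degrees of freedom. Ogn and Fmod were tested without the filter. Alternatives used DESeq2 1.42.0, limma 3.58.1, RLE or total-count scaling, no filter, no block, other controls or fits of 2 conditions, and left out each replicate. The script was tested on simulated data. Pairing comes from the sequenced pool: deviations of libraries with the same number had a median correlation of 0.0981, against -0.0685 for different numbers. Chi-square per gene between replicates was 1.30 to 5.69 over 131 pairs, so none was counted as 1 sample. Members and gene lists were chosen with earlier results of these data known. The text names all members, up to 4 genes of a list in a comparison (those with the lowest adjusted p), defining markers, and the 3 tested genes most like each member. Counts limit the precision: a floor of 3 counts over a group was used where it held 0.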

Additional observations from a re-analysis of the deposited data

Results flagged for a closer look

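Ogn in the 5 Mock libraries had 1 library far from the others, at 57.7 CPM against 0, 0, 0 and 14.9 CPM. These are 2 counts against 0, 0, 0 and 1. The gap divided by the range was 0.741, above the critical value of 0.71. This test was run on 4 groups of values and chance marks about 1 group in 20.

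The Mock library left out of the tests for its total of 6403 counts held 4 counts of Bgn, or a CPM of 625 over its whole total (95% counting interval 170 to 1600). The nt libraries had 74.9 to 93.2 on that scale. It held 1 count of Dcn and 0 of the other members, which allows up to 469 on that scale each. The siMtf1 library left out, with 7981 counts, held 0 of all 6 members, which allows up to 376 each.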

How the results depend on the processing

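No named member comparison changed direction under the alternatives run. Without Aspn, RLE and total-count scaling kept all 23 member calls, and RLE moved the median of all genes by -0.16 between day 0 and day 6. Calls on day 6 against day 0 went from 2 to 1 higher with only the 2 conditions in the fit and from 2 to 1 lower with DESeq2, and over all days from 6 to 2 higher and from 12 to 6 lower, the calls lost with DESeq2 being those of Aspn, which these 2 counts of lower calls include (1 and 6 without it). The higher calls absent from fits of 2 conditions were not lost in a test, since the member did not pass the filter there. Calls against the day before went from 2 higher to 0 without the filter and 1 with only the 2 conditions or with limma (0 to 2 on leaving out a replicate), and from 1 lower to 0 without the filter and 2 with total counts (0 to 1). Calls in siRNAs went from 2 higher to 1 without the filter and 0 with limma (1 to 4), and from 4 lower to 13 with nt and Mock together, 10 with only the 2 conditions and 1 with limma (2 to 8). Over all genes these settings were counted in siWdr5 alone, where lower calls went from 454 to 534 with nt and Mock together. Among siWdr5, siBrca1 and siBard1, higher calls went from 1 to 2 with RLE, DESeq2 or only the 2 conditions, and lower calls from 0 to 1 with RLE (0 to 1). The Lum call in nt against day 6 went from 1 to 0 with limma (0 to 1).

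Without the replicate block, higher calls were 1 against the day before and 1 in siRNAs, and 20 of 23 member calls were kept, Aspn left out. Depth limits Aspn, Ogn and Fmod, which had few counts in most libraries.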
